A study of Mus musculus with 32 samples.

Results

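The guanylate-binding protein (GBP) genes described here were the 10 genes Gbp2, Gbp3, Gbp4, Gbp5, Gbp6, Gbp7, Gbp8, Gbp9, Gbp10 and Gbp11, taken by their symbols from the 54429 gene symbols in the merged table of RNA-seq counts. The rule used no measured value, though the family was proposed with earlier results of these data known. The cells were Veravec, a mouse lung endothelial cell (EC) line, and every culture went through 2 rounds of transfection with control siRNA, named si-control, or with siRNA against Dnmt1, the maintenance DNA methyltransferase, named si-dnmt. The methods list 2 Dnmt1 siRNA sequences and do not say whether a culture received one or both. Cultures were then left without cytokine or received TNFα at 10 ng/mL (TNF), IFNγ at 1000 U/mL (IFN) or both (TNF + IFN), for 16 h, which made the 8 groups si-control, si-control + TNF, si-control + IFN, si-control + TNF + IFN, si-dnmt, si-dnmt + TNF, si-dnmt + IFN and si-dnmt + TNF + IFN. Each group held 4 libraries, numbered 1 to 4 and described as biological replicates, for 32 libraries in all. The groups therefore share 1 cell line and the transfection itself, and the p-values below measure the spread between cultures of that line. The question for these genes was how each cytokine set their level and how Dnmt1 silencing altered it.

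GBPs are large GTPases of the dynamin superfamily that cells make in quantity after exposure to IFNγ. They assemble on pathogen-containing vacuoles and on bacteria in the cytosol, help to break open the membrane, and pass microbial products on to inflammasomes. Several carry a C-terminal CaaX box whose prenylation anchors the protein in membranes. IFNγ signals through JAK kinases to promoters that hold gamma-activated sites (GAS) and induces the transcription factor IRF1, which in turn binds interferon-stimulated response elements (ISREs) in GBP promoters. TNF acts mainly through NF-kB and can raise IRF1 as well. In endothelium, GBPs are known as markers of inflammatory activation.

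In the GENCODE M21 annotation the members sit in 2 clusters. Gbp5, Gbp7, Gbp3 and Gbp2 follow one another on chromosome 3, and Gbp8, Gbp9, Gbp4, Gbp10, Gbp6 and Gbp11 on chromosome 5. RefSeq (build GRCm38.p6) gave a promoter window for 4 of the 10 members, those of chromosome 3. The 250 bases before the start of each, on the forward strand, are printed because all 4 genes rose with each cytokine and, without cytokine, with Dnmt1 silencing. Capitals mark matches to the ISRE letters GAAANNGAAA, read on either strand as TTTCNNTTTC. The windows are chr3:142496684-142496933 for Gbp5, chr3:142530086-142530335 for Gbp7, chr3:142559794-142560043 for Gbp3 (at the first of its 2 RefSeq starts) and chr3:142620413-142620662 for Gbp2.
Gbp5: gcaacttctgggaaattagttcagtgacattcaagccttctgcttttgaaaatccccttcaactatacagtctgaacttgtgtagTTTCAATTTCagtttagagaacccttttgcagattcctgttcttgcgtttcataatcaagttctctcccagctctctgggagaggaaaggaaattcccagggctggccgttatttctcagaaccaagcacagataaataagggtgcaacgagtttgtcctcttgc
Gbp7: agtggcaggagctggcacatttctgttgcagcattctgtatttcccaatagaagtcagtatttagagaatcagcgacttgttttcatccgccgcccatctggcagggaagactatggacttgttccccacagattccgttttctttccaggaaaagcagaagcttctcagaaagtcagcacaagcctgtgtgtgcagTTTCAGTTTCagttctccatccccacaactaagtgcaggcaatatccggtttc
Gbp3: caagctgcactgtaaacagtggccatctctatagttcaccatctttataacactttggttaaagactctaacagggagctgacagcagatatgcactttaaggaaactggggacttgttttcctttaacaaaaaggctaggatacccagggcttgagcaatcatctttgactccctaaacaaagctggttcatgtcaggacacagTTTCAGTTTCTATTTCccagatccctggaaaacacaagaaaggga
Gbp2: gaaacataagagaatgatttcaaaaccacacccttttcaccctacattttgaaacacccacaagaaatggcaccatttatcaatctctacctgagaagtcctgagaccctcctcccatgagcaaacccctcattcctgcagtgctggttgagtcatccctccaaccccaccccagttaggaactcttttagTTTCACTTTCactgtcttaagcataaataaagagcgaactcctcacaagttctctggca

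Each of these windows held at least 1 ISRE match, as did 2.98% of the 32851 RefSeq promoter windows of the same length. The window at the second RefSeq start of Gbp3, chr3:142560106-142560355, held none. The match began 59 bases before the start in Gbp2, 53 bases before it in Gbp7 and 165 bases before it in Gbp5. Gbp3 held 2 matches that overlap, 45 and 39 bases before the start. The GAS letters TTCNNNGAA, searched on both strands, occurred 2 times in Gbp5 and 2 times in Gbp7 and were not found in the windows of Gbp2 and Gbp3, against a share of 7.02% of all windows. An NF-kB motif match was present in Gbp5 alone among the 4 windows, and in 3.9% of all windows. CpG dinucleotides, the letters that Dnmt1 keeps methylated, numbered 1 in Gbp2, 0 in Gbp3, 3 in Gbp5 and 5 in Gbp7, where the median window held 6 (quartiles 2 and 16). These are matches of letters. Neither methylation nor binding of a factor was measured in the libraries analysed here. Promoters of Gbp4, Gbp6, Gbp8, Gbp9, Gbp10 and Gbp11 are not shown.

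How the counting treated reads that fit more than 1 gene is not stated in the sources, and this matters most for Gbp10 and Gbp6. Of the 100-base stretches in M21 transcripts of Gbp10, 73.5% also occurred in transcripts of another gene, and for Gbp6 the share was 64.5%. Their main partner was the predicted gene Gm43302, which lies in the same cluster. It shares 46.3% of the exon bases of Gbp10 and 29.0% of those of Gbp6. Gbp6 and Gbp10 also share sequence with each other. Of the Gbp10 stretches 60.1% occurred in Gbp6, and of the Gbp6 stretches 36.3% in Gbp10. These genes are counted below as separate members, although they may share reads. The shared stretches made up 10.0% of Gbp7, 5.13% of Gbp11, 4.39% of Gbp8 and at most 1.65% of the other members, and none of Gbp2. For Gbp7 the partner was Gm43802, which had 0 counts in every library. Values of Gbp6 and Gbp10 are therefore uncertain. Those of the 3 genes summed are also given below for si-dnmt against si-control and for IFN in si-control. Gbp8, Gbp9 and Gbp4 each share 120 or 121 exon bases with the others.

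Total counts per library ranged from 17362546 to 33500030 (median 20859668), and levels are given as CPM, counts scaled to a common library size with edgeR's TMM factors. All 10 members passed the low-count filter that left 15254 genes for testing. Dnmt1 was lower in every si-dnmt library (5.11 to 17.3 CPM) than in every si-control library (86.5 to 211 CPM). Endothelial markers were present throughout (10 of 10 passed the filter, summed level 3724 to 9820 CPM). Of the leukocyte markers 3 of 10 passed (summed 67.8 to 232 CPM), with Cd3e and Nkg7 at 0 counts in every library, of the fibroblast markers 4 of 6 (10.8 to 80.6 CPM) and of the epithelial markers 1 of 6 (3.65 to 22.7 CPM), with Sftpc at 0. Pericyte and smooth muscle markers (3 of 6 passed, mostly Acta2) summed to 39.3 to 183 CPM in si-dnmt against 7.69 to 26.6 CPM in si-control, 66.3 to 143 against 9.52 to 28.7 with TNF, 84.0 to 230 against 20.9 to 69.4 with IFN and, overlapping, 59.1 to 133 against 18.7 to 64.7 with TNF + IFN. Fibroblast markers were lower in si-dnmt (17.6 to 34.5 CPM) than in si-control (43.4 to 80.6 CPM) and in si-dnmt + IFN (10.8 to 17.8) than in si-control + IFN (22.5 to 38.2). Leukocyte markers were lower in si-dnmt (140.2 to 187.0 CPM) than in si-control (191.2 to 227.7 CPM) without cytokine, and these groups overlapped in the other 3 states. Endothelial markers were lower with TNF than without it in si-control (4245 to 5952 against 6461 to 9820 CPM) and in si-dnmt (3887 to 5415 against 6188 to 9011 CPM). The mitochondrial share of counts was lower with si-dnmt in each cytokine state, at 3.27 to 4.03% against 4.43 to 5.77% without cytokine and 2.40 to 3.24% against 3.25 to 4.89% with IFN, and did not overlap under TNF or TNF + IFN either. The part of these marker lists and of the mitochondrial share in the results below was not tested. In bulk RNA a change in the number of cells and a change in RNA per cell cannot be told apart.

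Without cytokine, a few members carried most of the family's RNA. Scaled to exon length (CPM per kilobase of M21 exons), Gbp3 stood at 43.2 ± 4.97 (SD, n = 4) in si-control, Gbp2 at 31.8 ± 1.18, Gbp9 at 28.9 ± 1.57 and Gbp7 at 17.1 ± 1.85. These 4 genes made up 33.6%, 24.8%, 22.5% and 13.3% of the length-scaled sum of the 10 members. Gbp5 measured 3.15 on the same scale, Gbp6 2.45, and Gbp10, Gbp4, Gbp8 and Gbp11 each less than 1. Gbp11 was near the limit of counting, with 3 to 7 counts per library in si-control (17 in all), which is 0.2 CPM with a 95% exact Poisson interval of 0.116 to 0.319 for counting error alone. In si-dnmt it had 28 counts over the 4 libraries, 0.269 CPM (0.179 to 0.389). IFN changed this composition: in si-control + IFN, Gbp2 reached 2850 ± 633 per kilobase and 62.7% of the sum, and Gbp3, the next in order, 348 ± 55.6 and 7.65%. The share of Gbp2 was 54.8% in si-control + TNF + IFN, 56.2% in si-dnmt + IFN and 49.9% in si-dnmt + TNF + IFN. With TNF alone Gbp3 (163 ± 21.1 per kilobase) and Gbp2 (159.7 ± 34.9) differed by less than their SDs in si-control + TNF. Reads that Gbp6 and Gbp10 may share leave their levels uncertain, and with them the sum and the share of every member.

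**Figure D1:**
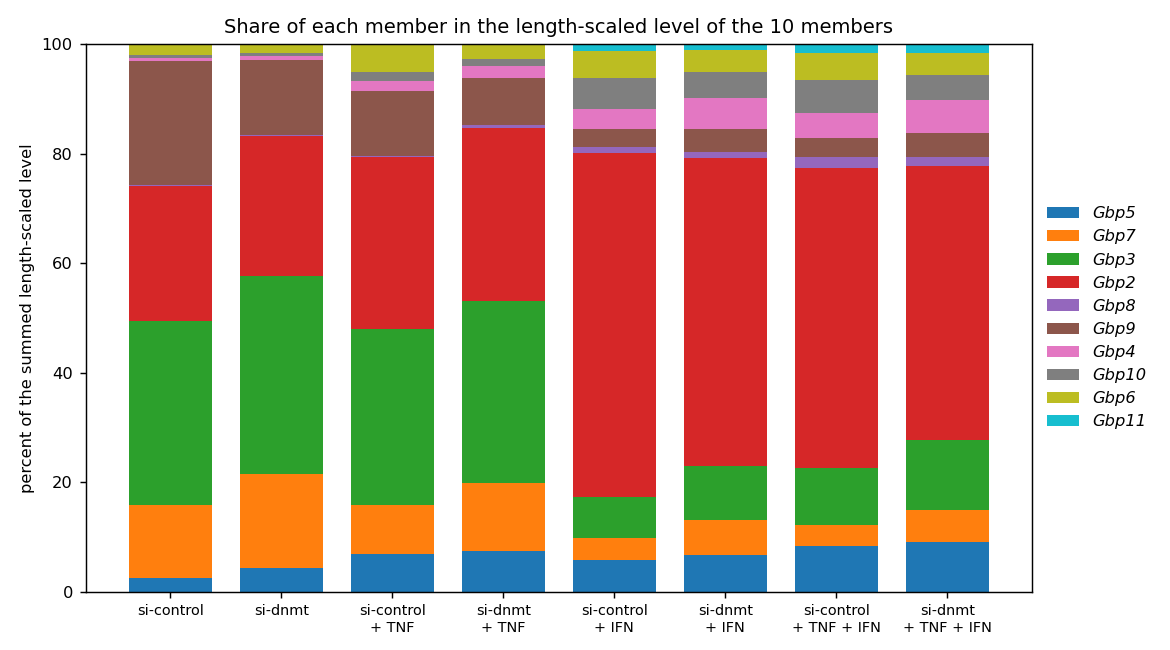
Share of each member in the length-scaled level summed over the 10 guanylate-binding protein genes (percent, vertical axis) in the 8 groups, each bar being a mean of 4 libraries. Gbp3 holds 33.6% in si-control, and Gbp2 holds 62.7% in si-control + IFN.

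Taken as a share of all counts in a library, the 10 members accounted for 0.052% ± 0.0031 in si-control, 0.203% ± 0.0386 in si-control + TNF, 1.49% ± 0.264 in si-control + IFN and 1.51% ± 0.105 in si-control + TNF + IFN. In si-dnmt they accounted for 0.0846% ± 0.0253, in si-dnmt + TNF for 0.212% ± 0.0488, in si-dnmt + IFN for 1.09% ± 0.202 and in si-dnmt + TNF + IFN for 1.24% ± 0.212. The family's share was thus higher in si-dnmt than in si-control at rest and lower under IFN, on group means. Under IFN the libraries overlapped, at 0.898 to 1.299% in si-dnmt + IFN against 1.261 to 1.774% in si-control + IFN. Gbp2 had the highest CPM of the members there (mean 7170 in si-control + IFN and 4142 in si-dnmt + IFN), so it weighs most in this share. The plot of levels by library shows the same genes singly.

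**Figure D2:**
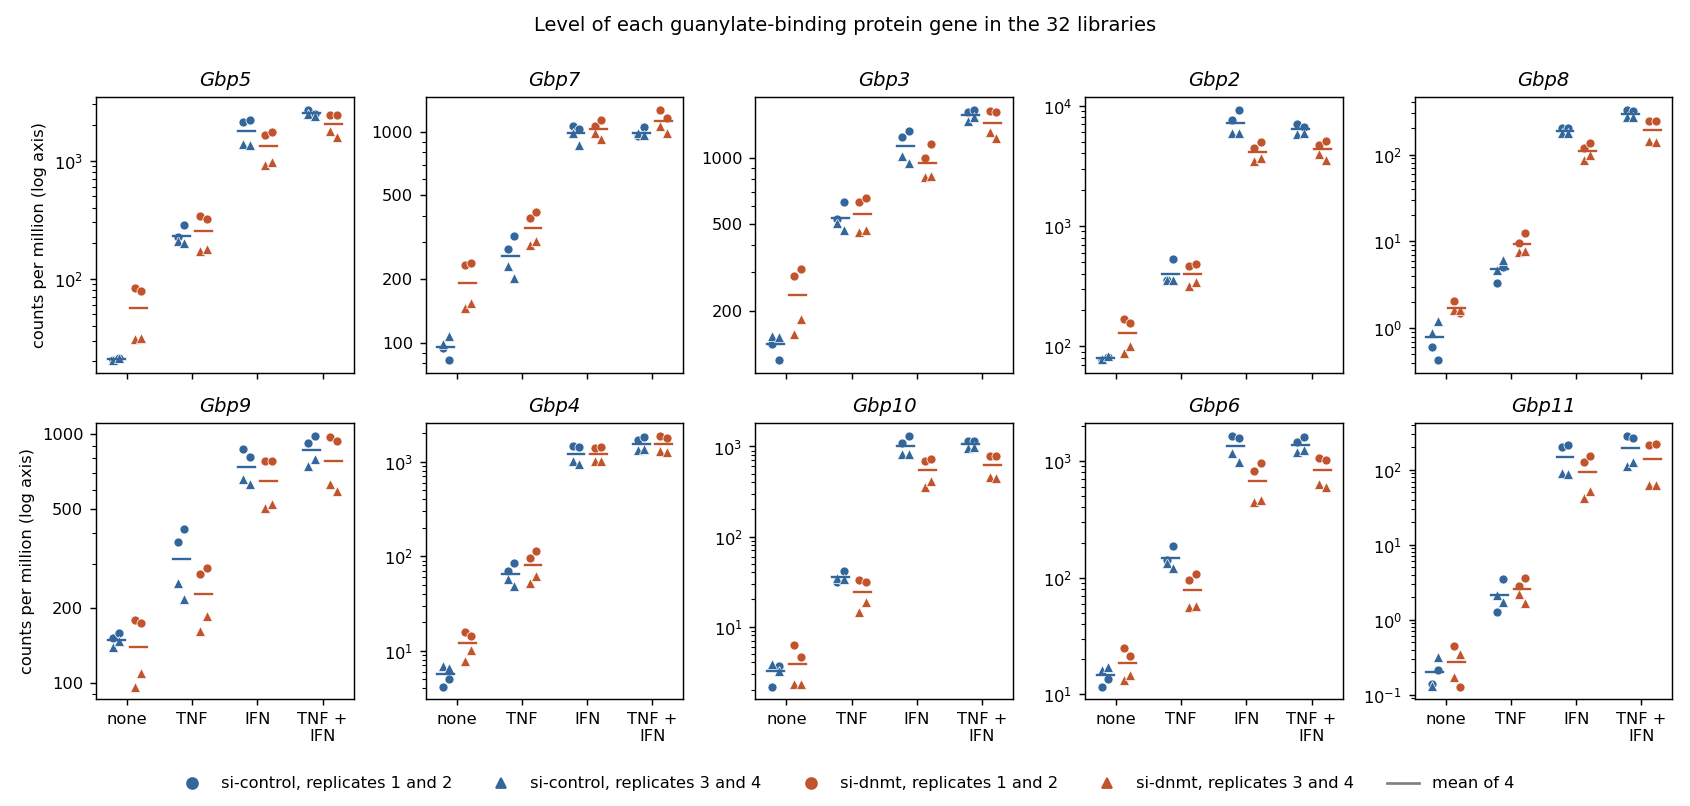
Level of each member in the 32 libraries, in CPM on log axes, by cytokine state and siRNA. Circles are replicates 1 and 2, triangles replicates 3 and 4 and lines the means of 4, and in Gbp5 without cytokine all si-dnmt libraries lie above all si-control libraries.

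IFN raised every member. In si-control all 10 were called higher by edgeR's quasi-likelihood F test at a Benjamini-Hochberg adjusted p under 0.05, where 8.56% of all genes tested were, and in all 10 the libraries of the groups did not overlap, as in 9.14% of all genes (higher). Gbp2, a prenylated GBP that coats the Toxoplasma vacuole, measured 76.3, 82.2, 78.7 and 82.6 CPM in replicates 1 to 4 of si-control and 7600, 9241, 5886 and 5951 CPM in si-control + IFN. This was a log2 fold change of 6.49 ± 0.246 (SE), or 89.7-fold. Gbp5, which promotes assembly of the NLRP3 inflammasome, went from 20.4, 21.5, 20.4 and 21.4 CPM to 2137, 2191, 1393 and 1355 CPM, 84.6-fold higher. Gbp4 went from 4.18, 4.98, 6.9 and 6.59 CPM to 1479, 1451, 1019 and 951.9 CPM, or 216-fold higher. In each of these genes IFN separated the groups by more than an order of magnitude, with replicates 1 and 2 above replicates 3 and 4 in the treated cultures.

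Among the other chromosome 5 members, Gbp8 rose 236-fold with IFN in si-control, Gbp10 315-fold and Gbp6 91.9-fold. Gbp6, Gbp10 and Gm43302 summed rose by 7.09 ± 0.345 on the log2 scale, between the values of Gbp6 (6.52) and Gbp10 (8.3). The fitted fold of Gbp11 was 727, from a base of 3 to 7 counts per library, so its size rests on few reads. The smallest responses belonged to 3 of the 4 members with the highest length-scaled level at rest. Gbp7, which helps to assemble the NADPH oxidase on vacuoles, rose 10.3-fold, Gbp3 8.05-fold and Gbp9 4.98-fold. Gbp3 and Gbp9, like Gbp2 and Gbp7, encode proteins that gather on the Toxoplasma vacuole. In si-control + IFN, Gbp9 measured 871.6, 807.6, 661.8 and 629.2 CPM, against 151.6, 158.9, 139.5 and 147.1 CPM in si-control. In log2 terms the responses of si-control spanned 2.31 (Gbp9) to 9.51 (Gbp11), with a median of 6.5 over the members and -0.00816 over all genes tested.

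In si-dnmt, IFN again raised 10 of 10 members, with 6.66% of all genes called higher, and again no libraries overlapped (10.2% of all genes). The log2 fold change was smaller than in si-control for each member, from 2.02 ± 0.182 (Gbp3) to 8.41 ± 0.669 (Gbp11), with a median of 5.1. Gbp2 rose 32.4-fold and Gbp5 23.5-fold, and Gbp9 4.62-fold. The test of these differences is given with the interactions below.

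**Figure D3:**
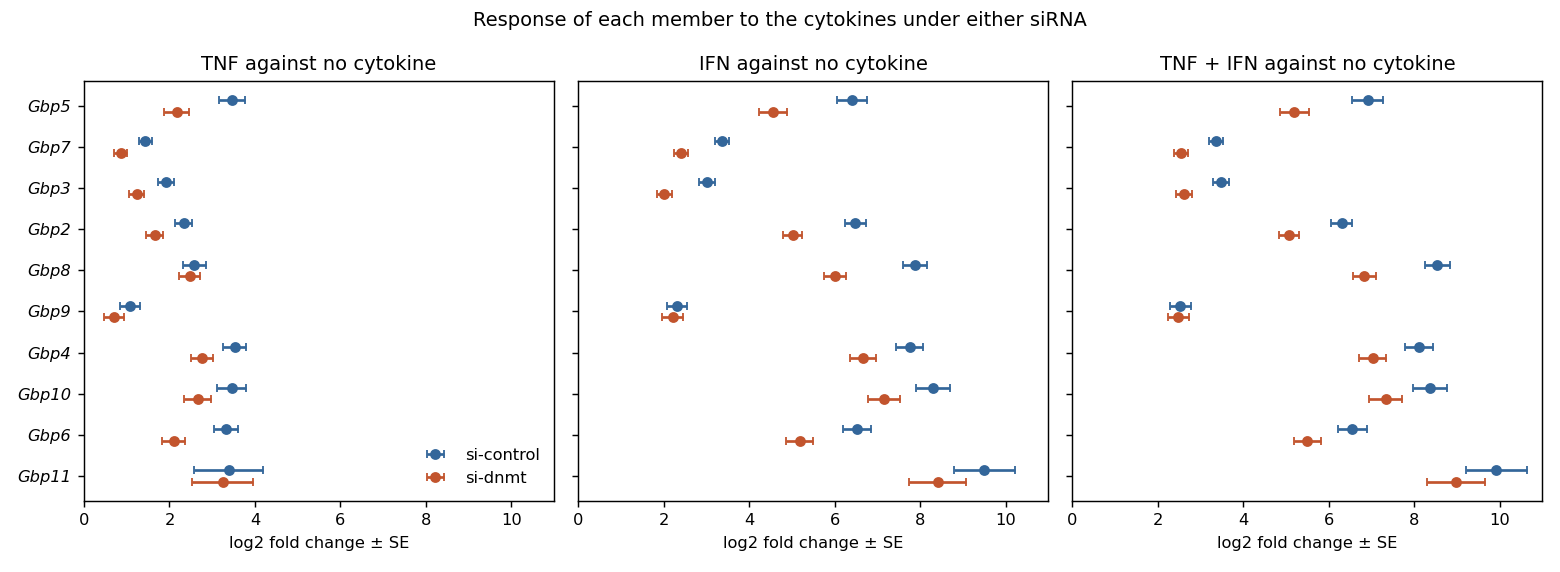
Log2 fold change of each member with TNF, IFN or TNF + IFN against no cytokine (horizontal axis, bars ± SE), for si-control and si-dnmt. The IFN response runs from 2.31 in Gbp9 to 9.51 in Gbp11 in si-control, and for each member the si-dnmt value lies lower.

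TNF alone also raised all 10 members, less steeply. In si-control 10 of 10 were called higher, where 16.1% of all genes were, and in all 10 every treated library lay above every untreated one, as in 13.9% of all genes. Gbp4 measured 69.8, 85.8, 57.6 and 49.0 CPM in si-control + TNF, 11.5-fold above si-control. Gbp5 measured 224, 287.5, 208.8 and 199.2 CPM, a log2 rise of 3.46 ± 0.31. Gbp10 rose 10.9-fold, Gbp6 10.0-fold, Gbp8 5.99-fold and Gbp2 5.02-fold. Gbp3 rose 3.77-fold, Gbp7 2.7-fold and Gbp9 2.1-fold, the 3 smallest responses. Gbp11 went from 0.2 to 2.15 CPM on group means, with a log2 fold change of 3.39 ± 0.807.

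In si-dnmt TNF raised 10 of 10 members as well, where 11.5% of all genes were called higher. The log2 fold changes ran from 0.7 ± 0.229 (Gbp9) to 3.25 ± 0.717 (Gbp11), with a median of 2.13 against 2.95 in si-control. For 9 of 10 members the libraries did not overlap, beside 13.9% of all genes. Gbp9 was the exception. It measured 179.6, 173.4, 96.6 and 109.9 CPM without cytokine and 273.5, 289, 161.6 and 186.5 CPM with TNF, so the groups crossed. Its call (adjusted p = 0.0278, edgeR) was lost without si-dnmt replicate 3 or 4 or without si-dnmt + TNF replicate 1 or 2, with log2 fold changes of 0.56 to 0.6 and adjusted p of 0.0881 to 0.11.

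Adding TNF to IFN raised Gbp8 and Gbp3 under both siRNAs. Against no cytokine, TNF + IFN raised 10 of 10 members in si-control (23.5% of all genes) and 10 of 10 in si-dnmt (21.3%), with no overlap between libraries (20.9% and 21.1% of all genes). Against IFN, 2 of 10 were called higher in si-control, where 15.6% of all genes were, and 2 of 10 in si-dnmt, where 12.4% were, so the members' share was near that of all genes. Gbp8 measured 201.2, 200.4, 176.8 and 175.7 CPM in si-control + IFN and 328.3, 319.5, 268.7 and 267.5 CPM in si-control + TNF + IFN. The log2 difference was 0.65 ± 0.197 (adjusted p = 0.0132, edgeR) in si-control and 0.81 ± 0.198 (0.00298) in si-dnmt. Gbp3 changed by 0.48 ± 0.176 (0.0424) and 0.6 ± 0.176 (0.0122). Every TNF + IFN library lay above every IFN library for Gbp3, Gbp5 and Gbp8 in si-control (3 of 10, where 14.8% of all genes did) and for Gbp3 and Gbp8 in si-dnmt (2 of 10, where 14.7% did).

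The levels of Gbp2 and Gbp7 with the cytokine pair overlapped those with IFN alone under both siRNAs. In si-control + TNF + IFN, Gbp2 measured 7062, 6596, 5787 and 5891 CPM, a log2 difference from IFN of -0.18 with a 95% interval of -0.56 to 0.2. The log2 difference for Gbp7 was 0.0038 (-0.29 to 0.3). With the replicate number as a block, 4 members were called higher in si-control (Gbp4 and Gbp5 besides Gbp3 and Gbp8) and 5 in si-dnmt (Gbp5, Gbp9 and Gbp11 besides Gbp3 and Gbp8), where 41.9% and 35.9% of all genes were called in either direction. The si-control call of Gbp3 was lost without si-control + IFN replicate 3 or 4 or without si-control + TNF + IFN replicate 1, 2 or 4 (log2 0.4 to 0.5, adjusted p 0.0556 to 0.129). That left 1 member called instead of 2.

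The TNF effect was smaller in the presence of IFN than in its absence, on the log2 scale. This difference, the TNF-by-IFN interaction, was called lower for 8 of 10 members in si-control, where 0.642% of all genes were. Gbp10 had an interaction of -3.38 ± 0.427, Gbp6 -3.29 ± 0.38, Gbp4 -3.18 ± 0.353, Gbp5 -2.95 ± 0.405 and Gbp2 -2.51 ± 0.278. For Gbp2, TNF alone gave a log2 fold change of 2.33 and TNF on top of IFN -0.18. Gbp8 (-1.93 ± 0.342), Gbp3 (-1.44 ± 0.25) and Gbp7 (-1.43 ± 0.215) had smaller interactions. Gbp11 (-2.97 ± 0.939, adjusted p = 0.158, edgeR) and Gbp9 (-0.86 ± 0.322, 0.289) were not called, and both were with the replicate block (adjusted p = 7.21e-04 and 0.00111).

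In si-dnmt the TNF-by-IFN interaction was called lower for 5 of 10 members, Gbp10, Gbp4, Gbp6, Gbp8 and Gbp2, where 0.177% of all genes were. Gbp10 had -2.5 ± 0.419, Gbp4 -2.42 ± 0.345 and Gbp2 -1.59 ± 0.275. With the replicate block 8 members were called, with Gbp5, Gbp7 and Gbp11 added, and 1.82% of all genes in either direction. The call of Gbp6 (-1.79 ± 0.373, adjusted p = 0.02, edgeR) was lost without replicate 3 or 4 of si-dnmt or si-dnmt + TNF + IFN, and without replicate 1 or 2 of si-dnmt + TNF or si-dnmt + IFN (-1.69 to -1.57, adjusted p 0.054 to 0.0722). Gbp5 gained a call without si-dnmt replicate 1 (-1.77, adjusted p = 0.0452).

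Without cytokine, Dnmt1 silencing raised Gbp5, Gbp8, Gbp4, Gbp7, Gbp3 and Gbp2. These 6 of 10 members were called higher in si-dnmt, where 9.58% of all genes were, and 0 were called lower, where 8.88% of all genes were. In the same 6 genes every si-dnmt library lay above every si-control library, a pattern seen in 11.1% of all genes. The median log2 fold change over the members was 0.71, against -0.00493 over all genes tested.

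Gbp5 changed most among these 6. From 20.4, 21.5, 20.4 and 21.4 CPM in si-control it went to 83.1, 78.8, 31.2 and 31.8 CPM with si-dnmt, a log2 fold change of 1.43 ± 0.289 or 2.69-fold (adjusted p = 8.06e-04, edgeR). The groups were apart, and si-dnmt replicates 1 and 2 were well above replicates 3 and 4. Gbp7 went from 94.5, 82.7, 98.8 and 107.6 CPM to 233.1, 238.3, 147.1 and 154.8 CPM, 2.02-fold higher (log2 1.01 ± 0.153, adjusted p = 2.41e-05). Gbp4 measured 15.8, 14.2, 7.82 and 10.1 CPM in si-dnmt, 2.11-fold higher (1.08 ± 0.259, 0.00374). In both the lowest si-dnmt library was nearer to si-control than to the highest.

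Gbp3 stood at 140.2, 118.3, 153.8 and 151.5 CPM before, and at 289.3, 309.5, 156.1 and 184 CPM after, silencing, 1.66-fold higher (log2 0.74 ± 0.177, adjusted p = 0.00376). Gbp2 measured 167, 157, 87.4 and 99.8 CPM in si-dnmt, 1.6-fold above si-control (0.68 ± 0.195, 0.0146). Gbp8, at a low level, measured 0.61, 0.424, 0.879 and 1.21 CPM against 2.05, 1.5, 1.6 and 1.63 CPM with si-dnmt, 2.12-fold higher (1.09 ± 0.298, 0.0104). For Gbp3 and Gbp2 the gap between the groups was small, because si-dnmt replicates 3 and 4 lay close to si-control. Without si-dnmt replicate 1 or 2 the call of Gbp2 was lost (log2 0.52 to 0.56, adjusted p 0.0604 to 0.0735).

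The remaining 4 members lie on chromosome 5 and their groups overlapped. In si-control Gbp6 measured 11.6, 13.5, 16.1 and 17 CPM, and with si-dnmt 24.8, 21.2, 13.3 and 14.5 CPM (log2 0.34 ± 0.27, adjusted p = 0.423, edgeR). The log2 fold change was 0.25 ± 0.33 for Gbp10, -0.09 ± 0.228 for Gbp9 and 0.43 ± 1.11 for Gbp11. Gm43302, which shares sequence with Gbp6 and Gbp10, changed by 0.45 (adjusted p = 0.453), and the 3 genes summed by 0.34 (0.424).

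Under TNF 3 of 10 members were called, where 20.0% of all genes were in either direction. The members' share was thus near that of all genes. Gbp8 and Gbp7 were called higher in si-dnmt + TNF (2 of 10, where 10.4% of all genes were) and Gbp6 was called lower (1 of 10, where 9.59% were). Gbp8 measured 3.27, 5.06, 4.72 and 6.08 CPM in si-control + TNF and 9.61, 12.6, 7.57 and 7.71 CPM in si-dnmt + TNF, 1.96-fold higher (log2 0.97 ± 0.219, adjusted p = 0.00199, edgeR). Gbp6 measured 142.5, 185.6, 134.1 and 121.8 CPM against 94.7, 107.2, 56.4 and 57.7 CPM, 1.85-fold lower (-0.89 ± 0.263, 0.0168). Neither gene's groups overlapped. Gbp7 measured 279.2, 321.8, 230.6 and 203.4 CPM against 391.9, 419.6, 290.2 and 303.3 CPM, and these groups did overlap (0.44 ± 0.151, 0.0384).

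For Gbp2 the TNF level was the same on average under both siRNAs, with a log2 difference of -1.2e-04 and a 95% interval of -0.38 to 0.38. Gbp3 (0.06 ± 0.176), Gbp5 (0.13 ± 0.279), Gbp4 (0.32 ± 0.24) and Gbp11 (0.29 ± 0.541) were not called, nor were Gbp9 (-0.46 ± 0.228, adjusted p = 0.161) and Gbp10 (-0.54 ± 0.288, 0.204). With the replicate block 5 members were called, with Gbp9 and Gbp10 added as lower, and 33.4% of all genes in either direction. Gm43302 changed by -0.87 (0.0406) and the sum of Gbp6, Gbp10 and Gm43302 by -0.82 ± 0.266 (0.0289). Leaving out replicate 2 of si-control + TNF, or replicate 3 or 4 of si-dnmt + TNF, ended the call of Gbp6 (-0.76 to -0.75, adjusted p 0.0638 to 0.0715). Leaving out replicate 3 or 4 of si-control + TNF, or replicate 1 or 2 of si-dnmt + TNF, ended that of Gbp7 (0.34 to 0.39, adjusted p 0.102 to 0.143).

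Under IFN, Dnmt1 silencing lowered Gbp2, Gbp8, Gbp6 and Gbp10. They were 4 of 10 members, where 9.54% of all genes were called lower, and 0 were called higher, where 10.8% of all genes were. In these 4 every si-dnmt + IFN library lay below every si-control + IFN library, as in 10.1% of all genes. The median log2 fold change of the members was -0.55, against -0.00674 over all genes tested.

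Gbp2 measured 4452, 4984, 3452 and 3681 CPM in si-dnmt + IFN, against 5886 CPM or more in si-control + IFN, and was 1.73-fold lower (log2 -0.79 ± 0.194, adjusted p = 0.00425, edgeR). Gbp8 measured 119, 135.4, 87.1 and 98.6 CPM in si-dnmt + IFN, 1.71-fold lower (-0.78 ± 0.198, 0.00566). Both genes had been higher in si-dnmt without cytokine, so their difference between siRNAs had opposite signs in the resting and the IFN-treated cultures. Gbp6 measured 1645, 1567, 1169 and 973.2 CPM in si-control + IFN and 824.2, 953.6, 443.8 and 461.5 CPM in si-dnmt + IFN, 2.0-fold lower (-1.0 ± 0.262, 0.00712). Gbp10 was 1.85-fold lower (-0.89 ± 0.282, 0.0253). Gm43302 moved with them (-1.13, 0.00597), and the 3 genes summed fell by 0.97 ± 0.265 on the log2 scale (adjusted p = 0.00965). The call of Gbp10 was lost without si-control + IFN replicate 1 or 2 or si-dnmt + IFN replicate 3 or 4 (-0.85 to -0.73, adjusted p 0.052 to 0.103).

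Gbp4 and Gbp7 showed no called difference under IFN. Gbp4 measured 1415, 1424, 1025 and 1020 CPM in si-dnmt + IFN, nearly the values of si-control + IFN, with a log2 difference of -0.0048 (95% interval -0.47 to 0.46). For Gbp7 the difference was 0.06 (-0.23 to 0.36). Gbp5 (-0.42 ± 0.279), Gbp3 (-0.25 ± 0.176), Gbp9 (-0.2 ± 0.227) and Gbp11 (-0.67 ± 0.425) overlapped between the siRNAs. Gbp5 (-0.44, adjusted p = 0.0414) and Gbp11 (-0.75, 0.00174) were called lower with the replicate block. In that fit 34.5% of all genes were called in either direction, against 20.3% without the block.

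Under TNF + IFN, Dnmt1 silencing lowered Gbp2 and Gbp8 (2 of 10 called lower, where 8.72% of all genes were). In either direction 17.7% of all genes were called, so the members' share was near that of all genes. Gbp2 measured 4733, 5089, 3939 and 3511 CPM in si-dnmt + TNF + IFN (log2 -0.55 ± 0.194, adjusted p = 0.0469, edgeR) and Gbp8 245, 245.6, 143.4 and 138.4 CPM (-0.62 ± 0.197, 0.0288). Gbp10 (-0.79 ± 0.282, 0.0514) and Gbp6 (-0.72 ± 0.26, 0.0548) missed the threshold. In all 4 genes the si-dnmt libraries lay below the si-control libraries, as in 10.9% of all genes. Gbp4 differed by -0.0024 (95% interval -0.47 to 0.46).

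These calls were sensitive to leaving out 1 library, while the log2 fold changes stayed negative. The call of Gbp2 was lost without any 1 of 7 of the 8 libraries, all but si-dnmt + TNF + IFN replicate 2 (-0.6 to -0.47, adjusted p 0.0564 to 0.148). Leaving out replicate 1 or 2 of si-control + TNF + IFN, or replicate 3 or 4 of si-dnmt + TNF + IFN, ended the call of Gbp8 (-0.58 to -0.49, adjusted p 0.0666 to 0.122). Gbp6 and Gbp10 gained one without si-dnmt + TNF + IFN replicate 1 or 2 (-0.92 to -0.84, adjusted p 0.0374 to 0.0448). The number of members called thus ran from 0, without si-control + TNF + IFN replicate 1, to 4, without si-dnmt + TNF + IFN replicate 2. With the replicate block 5 members were called lower (Gbp2, Gbp6, Gbp8, Gbp10 and Gbp11), where 30.8% of all genes were called in either direction, and with DESeq2 4, where 8.83% of the 33542 genes it fitted were. The sum of Gbp6, Gbp10 and Gm43302 changed by -0.75 ± 0.264 (adjusted p = 0.0492).

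**Figure D4:**
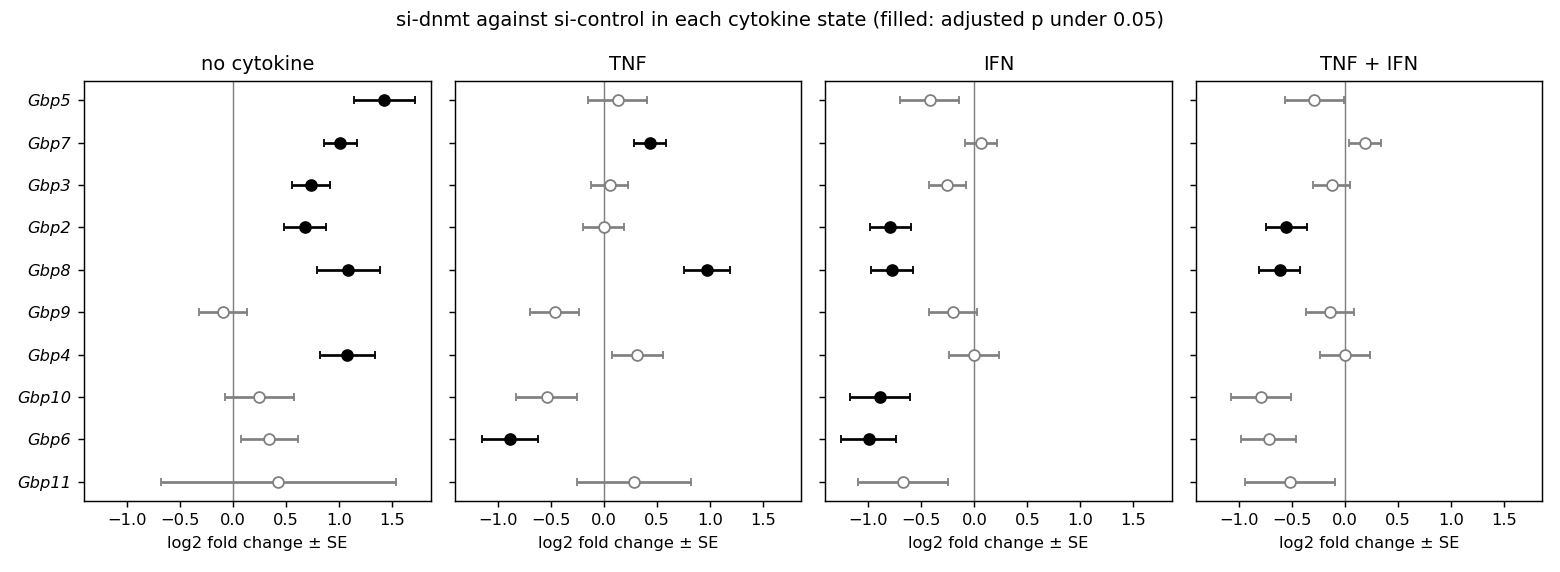
Log2 fold change of each member in si-dnmt against si-control (horizontal axis, bars ± SE) in the 4 cytokine states, filled where the adjusted p was under 0.05. Gbp5 has the highest value without cytokine, at 1.43, and Gbp6 the lowest under IFN, at -1.0.

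Whether the effect of Dnmt1 silencing differed between cytokine states was tested as an interaction, which is the si-dnmt effect in a state minus that without cytokine. For IFN it was called lower for 2 of 10 members, where 0.0459% of all genes were, which is 7 genes in all. These were Gbp2 (-1.47 ± 0.275, adjusted p = 0.0349, edgeR) and Gbp8 (-1.86 ± 0.357, 0.0393). Gbp5 had a value of the same size (-1.85 ± 0.401, 0.0714) and was not called. For TNF + IFN it was called lower for 3 of 10, where 0.374% of all genes were. These were Gbp8 (-1.7 ± 0.357, 0.0215), Gbp2 (-1.23 ± 0.275, 0.0307) and Gbp5 (-1.72 ± 0.401, 0.041). Over the 10 members the median was -1.12 for IFN and -1.05 for TNF + IFN, and Gbp9 was nearest to 0 in both (-0.11 ± 0.322 and -0.04 ± 0.322).

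For TNF no member was called by edgeR, where 0.0328% of all genes were in either direction. At an unadjusted p under 0.05 there were 6 members, where 6.63% of all genes were, and DESeq2 called 0. The largest values belonged to Gbp5 (-1.29 ± 0.4) and Gbp6 (-1.23 ± 0.376). With the replicate block, 2 members were called for TNF (Gbp5 and Gbp6), 7 for IFN (Gbp2 to Gbp8) and 8 for TNF + IFN (Gbp2 to Gbp8 and Gbp10). In that fit 0.892%, 0.387% and 4.18% of all genes were called in either direction. The 3 interactions share the libraries without cytokine.

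Several of these calls were lost when 1 library was left out, while the interaction values stayed negative. For IFN the call of Gbp2 was lost in 9 of 16 fits that each left out 1 library (-1.5 to -1.31, adjusted p 0.0506 to 0.123). These were replicates 1 and 2 of si-control, si-control + IFN and si-dnmt, and replicates 1, 3 and 4 of si-dnmt + IFN. The call of Gbp8 was lost in 10 (-1.91 to -1.68, adjusted p 0.0506 to 0.16), the same libraries and si-dnmt replicate 4. Without si-control replicate 1 no member was called for IFN or for TNF + IFN, and without si-dnmt replicate 3 there were 5 for each, with Gbp3 (-1.14), Gbp7 (-1.06) and Gbp5 added for IFN and Gbp3 and Gbp7 added for TNF + IFN (-1.01 and -0.94). Gbp5 was also called for IFN without si-dnmt replicate 4 (adjusted p 0.0293 to 0.039 over both).

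For TNF + IFN the call of Gbp2 was lost without replicate 1, 2 or 3 of si-control, replicate 1 or 2 of si-control + TNF + IFN or of si-dnmt, or replicate 3 or 4 of si-dnmt + TNF + IFN (-1.24 to -1.07, adjusted p 0.0509 to 0.0856). That of Gbp5 was lost in 12 of 16 such fits, each one that left out a si-control or si-control + TNF + IFN library, si-dnmt replicate 1 or 2, or si-dnmt + TNF + IFN replicate 3 or 4 (-1.74 to -1.47, adjusted p 0.0596 to 0.109). That of Gbp8 was lost without si-control replicate 1 or 2 (-1.6 to -1.52, adjusted p 0.0521 to 0.0586).

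Replicates 1 and 2 differed from replicates 3 and 4 in how far Dnmt1 silencing moved the GBP genes. The study describes all 4 as biological replicates and does not say what separates these sets, or which of the 2 Dnmt1 siRNAs each culture received. Without cytokine the si-dnmt to si-control ratio of Gbp5 was 4.08, 3.67, 1.52 and 1.49 for numbers 1 to 4, and that of Gbp4 3.79, 2.86, 1.13 and 1.53. For Gbp2 it was 2.19, 1.91, 1.11 and 1.21. The ratio of set means was larger in replicates 1 and 2 for 10 of 10 members, with medians on the log2 scale of 1.12 and 0.216. It lay above 0 for 10 members in replicates 1 and 2 and for 7 in replicates 3 and 4.

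Fitted alone, replicates 3 and 4 gave Gbp2 a log2 fold change of 0.21 (adjusted p = 0.0654) and Gbp3 0.15 (0.164), so both calls without cytokine were lost there. Gbp5 (0.59), Gbp7 (0.55), Gbp8 (0.63) and Gbp4 (0.4) stayed called in that set. Without cytokine 36.5% of all genes were called in either direction in replicates 3 and 4 alone. The share was 23.9% in replicates 1 and 2 alone and 18.5% in the fit of all libraries. Gbp10 was called higher in replicates 1 and 2 (0.93, adjusted p = 0.00374) and lower in replicates 3 and 4 (-0.62, 0.00708). Gbp6, also without cytokine, was called higher in replicates 1 and 2 (0.89) and was at -0.25 in replicates 3 and 4. Under TNF, Gbp5 was called higher in the one set (0.36, 0.0115) and lower in the other (-0.22, 0.0345). Under IFN the calls of Gbp2 (-0.85 in the first set, -0.73 in the second), Gbp6 (-0.87, -1.24), Gbp8 (-0.67, -0.92) and Gbp10 (-0.77, -1.09) held in each set. Of all genes, 26.1% were called in the first set and 36.4% in the second under TNF. Under IFN these shares were 25.2% and 38.5%.

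The ratio of set means was larger in replicates 1 and 2 for 8 members under TNF, 8 under IFN and 10 under TNF + IFN. Median log2 ratios in replicates 1 and 2 and in replicates 3 and 4 were 0.258 and -0.095 under TNF. They were -0.458 and -0.636 under IFN and -0.231 and -0.59 under TNF + IFN. With IFN present, the larger ratio in replicates 1 and 2 was thus a smaller lowering by the median. Dnmt1 itself moved with the set. Its log2 ratio without cytokine was -2.98 in replicates 1 and 2 and -4.54 in replicates 3 and 4, and under TNF + IFN -3.27 and -5.16. The part of the remaining Dnmt1 RNA in the difference between sets was not tested.

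**Figure D5:**
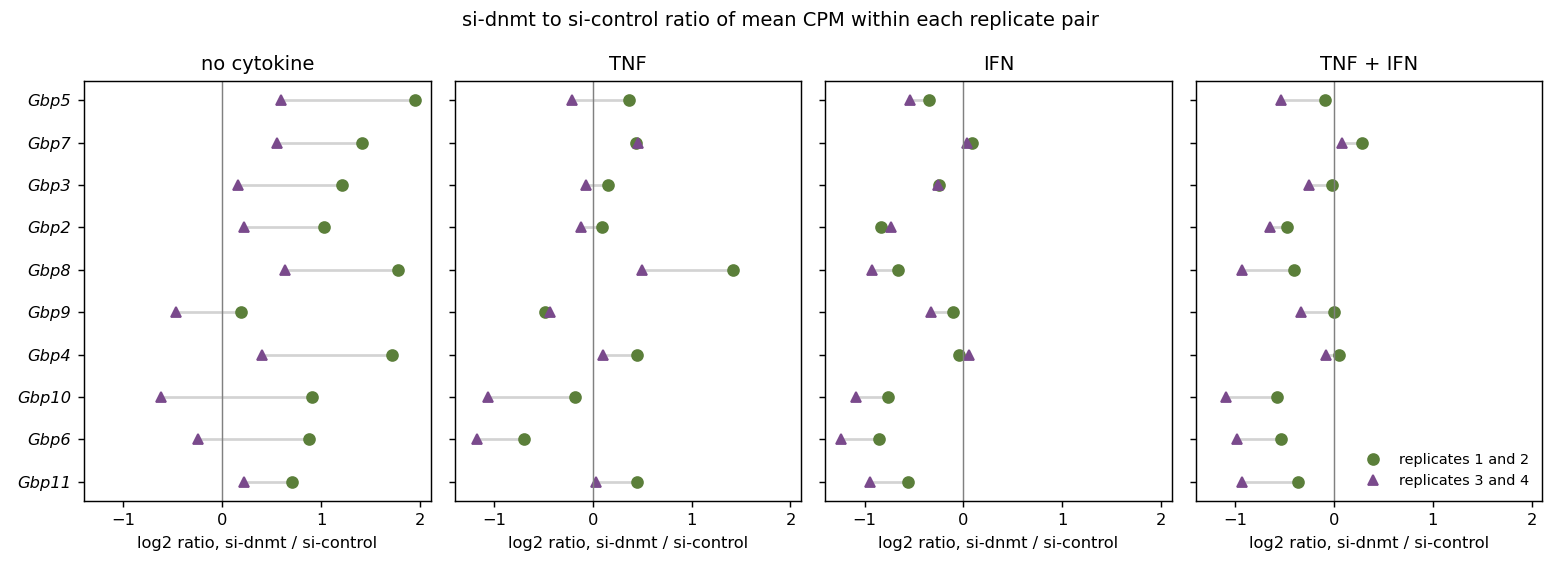
Log2 ratio of si-dnmt to si-control in replicates 1 and 2 and in replicates 3 and 4 (horizontal axis), joined for each member, by cytokine state. Without cytokine 10 of 10 members have the higher ratio in replicates 1 and 2, with medians of 1.12 and 0.216.

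Ordered by group mean, the 8 groups fell into a similar sequence for most members. Gbp3, Gbp4, Gbp5 and Gbp8 shared the order si-control, si-dnmt, si-control + TNF, si-dnmt + TNF, si-dnmt + IFN, si-control + IFN, si-dnmt + TNF + IFN and si-control + TNF + IFN. For Gbp8 the libraries of neighbouring groups overlapped only between si-control + IFN and si-dnmt + TNF + IFN. For Gbp3, Gbp4 and Gbp5 the siRNA groups overlapped within TNF, within IFN and within TNF + IFN, and si-control + IFN overlapped si-dnmt + TNF + IFN. Gbp2 ended differently, with si-dnmt + IFN, si-dnmt + TNF + IFN, si-control + TNF + IFN and si-control + IFN at the top, and overlaps inside each siRNA's pair and between the siRNAs under TNF. Gbp6 and Gbp10 had si-dnmt + TNF below si-control + TNF and both si-dnmt groups with IFN below both si-control groups with IFN, an order that Gbp11 shared for its top 4 groups, though for Gbp6 and Gbp11 si-dnmt + TNF + IFN overlapped si-control + IFN. Gbp7 was the member whose highest groups were si-dnmt + IFN and si-dnmt + TNF + IFN, though these overlapped each other and si-control + TNF + IFN overlapped si-dnmt + IFN. Gbp9 was the only one with si-dnmt below si-control at rest, and these groups overlapped.

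Genes of the pathway that feeds GBP promoters were described from a list of 21 interferon signalling genes, of which 20 were tested. With IFN in si-control 13 rose and 1 fell, with a median log2 fold change of 1.19 (-0.00816 over all genes). Of all genes tested, 8.56% were called higher and 5.92% lower there. Irf1, the activator named above, rose by 4.4. Ifng had 0 counts in every library, and Ifnb1 averaged 0.07 CPM at rest and 2.31 CPM with TNF + IFN in si-control. In si-dnmt without cytokine 11 of 20 rose and none fell (median 0.31), where 9.58% of all genes were called higher and 8.88% lower. Irf1 changed by 0.51 ± 0.144 (adjusted p = 0.0127, edgeR) and Stat2, which acts in the type I interferon response, by 0.72 ± 0.155 (0.0014). Under IFN 1 of 20 rose with si-dnmt and none fell (median 0.06), and Irf1 was at -0.24 (0.247). In that state 10.8% of all genes were called higher and 9.54% lower.

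Of 19 genes for membrane anchoring and recruitment of GBPs (prenylation enzymes, the ATG8 conjugation machinery and immunity-related GTPases), 6 rose with IFN in si-control and none fell (median 0.09). Over all genes, 8.56% were called higher and 5.92% lower there. Igtp, an immunity-related GTPase of the vacuole, rose by 5.82 with IFN and fell by 1.0 with si-dnmt under IFN. In si-dnmt without cytokine 3 rose and 3 fell (median -0.05). Of all genes 9.58% were called higher and 8.88% lower, so the list was near that share. Icmt, which methylates prenylated CaaX proteins, changed by -0.67 ± 0.11 and Irgm2 by 0.76 ± 0.229. Under IFN 1 rose and 4 fell with si-dnmt, where 10.8% of all genes were called higher and 9.54% lower.

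Of the 10 inflammasome and cell death genes, 9 were tested. With IFN in si-control 4 rose and 1 fell (median 0.91), and with si-dnmt 3 rose without cytokine (median 0.56), 4 under TNF, 3 under IFN and 3 under TNF + IFN, with none lower. Casp1, the inflammasome protease, rose by 3.78 ± 0.468 in si-dnmt without cytokine and the DNA sensor Aim2 by 0.77 ± 0.102. Of the 15 TNF and NF-kB response genes, 14 rose with TNF in si-control (median 1.8) and 2 with IFN (median 0.11). With si-dnmt 7 rose without cytokine (median 0.36), 4 under TNF, 8 under IFN and 6 under TNF + IFN, and 1 fell under TNF + IFN. Of all genes, 8.56% were called higher and 5.92% lower with IFN in si-control, and 16.1% higher with TNF. With si-dnmt 9.58% were called higher without cytokine, 10.4% under TNF, 10.8% under IFN and 8.97% under TNF + IFN. Under TNF + IFN 8.72% were called lower. The median over all genes tested lay between -0.0114 and 0.00984 in the 17 comparisons. All 4 lists were chosen with results of these data known.

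Apart from Gbp-named rows, 5 genes followed the members' mean log2 CPM most closely over the 32 libraries. These were Irf1 (Pearson r = 0.994), Gm43302 (0.990), Irgm2 (0.990), Gm12185 (0.989) and Igtp (0.989). Gm43302 shares exon bases with Gbp6 and Gbp10, which enter that mean. Part of its likeness may therefore be built in. Among the members themselves, r with the mean of the others ran from 0.969 (Gbp3) to 0.995 (Gbp4). The libraries share the cytokine design, so these values describe likeness of pattern across 8 groups. Other family rows in the table were Gbp2b, with 6 counts over the 4 si-control libraries, 20 with TNF, 207 with IFN and 422 with TNF + IFN (8, 30, 228 and 331 in the corresponding si-dnmt groups), and Gbp2-ps, a pseudogene with 1 count in 1 library.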

How the data were processed

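The authors deposited gene counts made with featureCounts from reads trimmed with cutadapt 4.9, with no normalization, for 32 libraries in 8 groups of 4. FastQC 0.12.1, MultiQC 1.27.1 and DESeq2 are also named in the submitters' processing notes. The aligner, genome build, annotation, strand setting and treatment of reads that fit several genes are stated in none of the sources, and overlapping genes and near-identical paralogs can share reads. Groups were taken from the sample titles.

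Analysis started from the counts as deposited. All libraries were fitted in 1 model of 8 group means with edgeR 4.0.16 in R 4.3.3 (TMM scaling, filterByExpr with a minimum count of 10, two-sided quasi-likelihood F test, Benjamini-Hochberg adjustment over 15254 genes, called at an adjusted p under 0.05). The SE of a log2 fold change was its size divided by the square root of F. There were 17 contrasts. Log2 CPM for the likeness of patterns used a prior count of 2. Total counts of 17362546 to 33500030 per library set the precision of low genes, and Poisson intervals cover counting error only. The procedure was tested on simulated counts.

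All 10 members are named, with other Gbp rows, Dnmt1, Irf1, Ifng, Ifnb1, genes of 4 pathway lists in list order and the 5 genes most alike. 1 further gene of this rule is not reported here. The members were fixed by symbol, and members and lists were chosen with earlier results of these data known. Shared 100-base stretches and exon lengths came from GENCODE M21 and promoters from RefSeq GRCm38.p6.

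The labels do not say what a replicate number marks. By the data the libraries fell into sets (numbers 1 and 2, or 3 and 4) more clearly than into single numbers. Deviations from group means correlated between same-numbered libraries in all 112 pairs (lowest r 0.297, median 0.415). The median was 0.409 for different numbers of the same set and -0.41 for libraries of different sets. Of the 32 libraries, 24 were closest to their own number. Alternatives were RLE scaling, no filter, a replicate block, each set alone, leaving out each library, DESeq2 1.42.0 and, chosen after seeing the data, Gbp6, Gbp10 and Gm43302 summed.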

Additional observations from a re-analysis of the deposited data

Results flagged for a closer look

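In si-control + TNF, Gbp2 had a library that stood apart from the other 3. Replicate 2 measured 533.0 CPM and the others 357 to 359 CPM, so the gap was 0.991 of the group's range. It was the only such case among 80 combinations of member and group, where chance gives about 1 in 20.

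The TNF effect on the log2 scale differed with and without IFN by a test of the interaction in si-control for Gbp2 (-2.508), Gbp3 (-1.438), Gbp4 (-3.179), Gbp5 (-2.946), Gbp6 (-3.293), Gbp7 (-1.428), Gbp8 (-1.931) and Gbp10 (-3.385). In si-dnmt it differed for Gbp2 (-1.592), Gbp4 (-2.417), Gbp6 (-1.789), Gbp8 (-1.657) and Gbp10 (-2.501). The Dnmt1 silencing effect differed between IFN and no cytokine for Gbp2 (-1.468) and Gbp8 (-1.864), and between TNF + IFN and no cytokine for Gbp2 (-1.23), Gbp5 (-1.717) and Gbp8 (-1.704). These are 18 of 50 interactions tested over the members. The interactions share libraries and are not independent of each other.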

How the results depend on the processing

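Of 170 member values (10 members in 17 comparisons), 167 kept their direction and their side of the threshold with RLE scaling, 165 without the low-count filter, 158 with DESeq2 and 140 with the replicate block, where 29 gained a call, 1 changed sign and no other call changed. In replicates 1 and 2 alone 123 did so and 41 gained a call. In replicates 3 and 4 alone 122 did so, 38 gained and 2 lost one. Leaving out 1 library at a time, 1625 of 1760 values did so, 83 lost a call, 11 gained one and 41 changed sign. The cause of these changes was not tested. Depth limits Gbp11 and Gbp8 at rest.

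Members called with si-dnmt under TNF (3) numbered 5 with the replicate block, 6 in replicates 1 and 2 and 6 in replicates 3 and 4. In those fits 33.4%, 26.1% and 36.4% of all genes were called in either direction. In the main fit (8 group means, no block) 20.0% were. Under IFN (4) there were 8 in replicates 3 and 4, where 38.5% of all genes were called, against 20.3% in the main fit. Under TNF + IFN (2) there was 1 with RLE scaling, 1 without the filter, 5 with the block, 5 in replicates 1 and 2, 8 in replicates 3 and 4, 4 with DESeq2 and 0 to 4 without 1 library. For TNF + IFN against IFN in si-control (2) there was 1 without the filter, 4 with the block, 4 in replicates 1 and 2, 7 in replicates 3 and 4 and 1 to 2 without 1 library, and in si-dnmt (2) there were 5, 6 and 7 with the block and in the sets. The TNF-by-IFN interaction in si-dnmt (5) gave 8, 9 and 10, and the siRNA-by-TNF interaction (0) gave 2, 8 and 2. The siRNA-by-IFN interaction (2) gave 7, 8, 5 and, with DESeq2, 6, with 0 to 5 without 1 library. The siRNA-by-TNF + IFN interaction (3) gave 8, 8, 6 and, with DESeq2, 5, with 0 to 5 without 1 library. The share of all genes called moved as well. Under TNF + IFN it was 17.7% in the main fit, 5.72% without the filter and 30.8% with the block. The sets gave 23.8% and 36.2%. For TNF + IFN against IFN in si-control the main fit, block and sets gave 29.1%, 41.9%, 34.6% and 39.7%. In si-dnmt they gave 23.6%, 35.9%, 32.6% and 30.9%. For the interactions, in the order above, the main fit gave 0.354%, 0.0328%, 0.0459% and 0.531%. The block gave 1.82%, 0.892%, 0.387% and 4.18%. Replicates 1 and 2 alone gave 4.8%, 1.97%, 1.8% and 4.86%, so the share of all genes called rose there too. For the interactions in replicates 3 and 4 and with DESeq2 the shares are not given here.

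Signs turned for values near 0 or split between the sets. For si-dnmt without cytokine, replicates 3 and 4 gave Gbp6 -0.251 and Gbp10 -0.624, and replicates 1 and 2 gave Gbp9 0.195. Leaving out 1 library gave -0.238 to 0.0471 for Gbp9 and -0.0835 to 0.437 for Gbp10. Under TNF, Gbp2 was 4.5e-04 with RLE scaling, 0.0885 in replicates 1 and 2, 0.0013 with DESeq2 and -0.105 to 0.166 without 1 library. Replicates 3 and 4 gave Gbp3 -0.0704 and Gbp5 -0.217, and leaving out 1 library gave -0.0355 to 0.147 and -0.0398 to 0.28. Under IFN, Gbp4 was 0.0071 without the filter, 0.0032 with the block, 0.0532 in replicates 3 and 4 and -0.106 to 0.0953 without 1 library. Under TNF + IFN it was 0.013 with RLE scaling, 0.0481 in replicates 1 and 2, 0.0131 with DESeq2 and -0.108 to 0.0841 without 1 library. For TNF + IFN against IFN in si-control, replicates 1 and 2 gave Gbp6 -0.0821, Gbp7 -0.066 and Gbp10 -0.0584, and leaving out 1 library gave -0.0938 to 0.163, -0.0523 to 0.0601 and -0.015 to 0.231. In si-dnmt leaving out 1 library gave Gbp2 -0.0305 to 0.158. For the siRNA-by-TNF interaction replicates 3 and 4 gave Gbp9 0.0416, and leaving out 1 library gave -0.414 to 0.0735 for Gbp8 and -0.467 to 0.184 for Gbp11. Replicates 3 and 4 gave Gbp9 0.143 for the siRNA-by-IFN and 0.138 for the siRNA-by-TNF + IFN interaction, and leaving out 1 library gave -0.245 to 0.0397 and -0.188 to 0.0972. Summing Gbp6, Gbp10 and Gm43302 kept 31 of 34 values in direction and side of the threshold, and 3 gained a call.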
